A study of Homo sapiens with 12 samples.

Results

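The joint dependence of gene expression on stable PIM1 and on the form of NFATC1 was measured in PC-3 cells, an androgen-independent line of prostate epithelial adenocarcinoma. The measure is an interaction in log2 units: WT minus MM beside stable PIM1, less WT minus MM in its absence. It was computed for every one of 25471 genes from 8 of the 12 samples of the series, 2 samples in each of 4 groups. The WT and MM groups carried an empty vector and the PIM1 + WT and PIM1 + MM groups an expression vector for Pim-1, in both cases as stable pools kept under G418 and cotransfected with a Td-Tomato marker plasmid. Both kinds of pool then received, by transient transfection, NFATC1 in its wild-type form (WT) or as a multi mutant (MM). The remaining 4 samples, the stable pools labelled control and PIM1, entered the fit for the shared estimate of the spread. WT, PIM1 + WT and control RNA was labelled with Cy3 and MM, PIM1 + MM and PIM1 RNA with Cy5, with a pair of samples on each of 6 arrays. A constant dye bias of a gene cancels in the interaction, and a PIM1 effect (with minus without stable PIM1) compares samples of 1 dye, whereas a WT minus MM difference sets Cy3 against Cy5. Replicate 1 of every group lay on 1 slide and replicate 2 on the other, and the place of the array on the slide changed together with the PIM1 status, so these cannot be told apart. The labels do not say that replicates came from separate cultures, and p-values therefore measure only the spread between these samples. Precision is limited by how few arrays there are.

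PIM1 is a serine/threonine kinase that needs no upstream activation and supports survival and growth of cancer cells. NFATC1 is a transcription factor held in the cytoplasm by phosphorylation. The calcium-dependent phosphatase calcineurin releases it to the nucleus, where it binds GGAAA motifs, often beside an AP-1 factor. PIM1 phosphorylates NFATC1, and by the paper's list MM NFATC1 has alanine in place of 10 target residues, 7 serines and 3 threonines. The comparison thus asks which transcripts respond to stable PIM1 in one way when NFATC1 keeps these residues and in another when it lacks them.

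The forward mutagenesis primers of the 5 primer pairs are shown because they define how the NFATC1 forms differ. Across 180 bases, 22 were changed. Each pair of lines gives the mutant primer and the original sequence, 5′ to 3′, with the differing bases in capitals. In the pair for Ser151, Ser153 and Thr154, the change from gccAcc to gccGcc lies outside the codons of the named residues. Read in frame as printed, it turns an ACC threonine codon into a GCC alanine codon. The paper lists no such substitution for MM, and whether the construct carries it is not given.
Ser245, mutant: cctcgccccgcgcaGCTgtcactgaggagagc
Ser245, original: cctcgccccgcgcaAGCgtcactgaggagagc
Ser269, mutant: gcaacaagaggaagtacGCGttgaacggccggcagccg
Ser269, original: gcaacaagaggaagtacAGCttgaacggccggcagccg
Ser151, Ser153, Thr154, mutant: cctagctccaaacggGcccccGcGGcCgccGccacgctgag
Ser151, Ser153, Thr154, original: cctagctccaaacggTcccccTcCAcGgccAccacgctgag
Ser256, Ser257, mutant: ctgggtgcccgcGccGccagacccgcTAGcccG
Ser256, Ser257, original: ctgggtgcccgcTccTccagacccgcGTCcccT
Ser335, Thr338, Thr339, mutant: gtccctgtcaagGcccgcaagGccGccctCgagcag
Ser335, Thr338, Thr339, original: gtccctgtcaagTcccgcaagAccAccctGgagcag

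Levels of the transfected genes themselves were read first. At 1 of the 2 NFATC1 probes, the mean log2 intensity was 7.77 in WT, 11.29 in MM, 7.97 in PIM1 + WT and 11.95 in PIM1 + MM. Without transfected NFATC1 it was 6.87 in control cells (Cy3) and 6.385 in the stable PIM1 pool (Cy5, not well above background). Across dyes, the MM transcript thus gave a far stronger signal than the WT transcript at this probe, with or without stable PIM1. The interaction at the probe was -0.46 (SE 0.163, limma adjusted p over probes = 0.19). The other NFATC1 probe read 8.28 in WT, 8.39 in MM, 7.19 in PIM1 + WT and 7.34 in PIM1 + MM. It read 8.29 in control cells and 7.44 in the stable PIM1 pool. The form of NFATC1 and the amount of its transcript therefore cannot be told apart in what follows. The PIM1 probe read 10.16 in WT, 10.13 in MM, 9.93 in PIM1 + WT and 10.29 in PIM1 + MM, with an interaction of -0.38 (SE 0.141, limma adjusted p = 0.216). The PIM1 effect at this probe passed neither with WT (-0.23, limma adjusted p = 0.136) nor with MM (0.15, adjusted p = 0.338). The stable PIM1 pool, in Cy5, read 10.20 and control cells, in Cy3, 9.95. Whether the probe lies in the transfected sequence is not given in the sources used here. By quantitative PCR on the array samples, the paper reports overexpression of PIM1 and/or NFATC1.

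Of the 25471 genes, 435 had a positive interaction past an adjusted p of 0.05 (1.71%) and 128 a negative one (0.503%), and 4064 passed at an unadjusted p below 0.05. The median interaction over all genes was -0.02, with the 5th percentile at -0.32 and the 95th at 0.38. Only 13 genes were also at least 1 in size, which is the rule for a call (0.051%). 9 of these were positive and 4 negative, and 2 of them had no gene symbol. The count of 563 rests on single samples: without WT replicate 1 it was 20, and without PIM1 + WT replicate 1 it was 18. Without the other samples in turn it was 74 (WT replicate 2), 106 (MM replicate 1), 131 (MM replicate 2), 158 (PIM1 + WT replicate 2), 217 (PIM1 + MM replicate 2) and 981 (PIM1 + MM replicate 1). The count of 13 was 7 without WT replicate 1 or PIM1 + WT replicate 1, 22 without WT replicate 2, 33 without PIM1 + WT replicate 2 and 160 without PIM1 + MM replicate 1. Both counts also rest on the scaling. With each channel centred on its median in place of quantile normalization, 0 genes passed in limma and 240 had an unadjusted p below 0.05. With loess within arrays, 1063 passed and 978 of them were positive (92.0%, against 77.3% of the 563). Raw signal moved with the groups: the median raw intensity of Cy3 channels was 102 and 86.0 in PIM1 + WT against 139 and 130.5 in WT cells. The median raw log2 signal of the spike-in spots was 9.72 and 9.56 in PIM1 + WT against 10.99 and 11.10 in WT cells. Cy5 channels moved the same way. Their spike-in signal was 12.69 and 11.48 in PIM1 + MM against 13.66 and 12.45 in MM cells. Their median raw intensity was 292 and 192 against 318 and 204. The part of this in the interaction was not tested.

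The positive interactions were, for the most part, genes whose level was highest in PIM1 + WT among the 4 groups that received NFATC1. In 383 of the 435 (88.0%), PIM1 + WT stood farthest from the other 3 groups and above them. In 37 PIM1 + MM lay below, in 10 WT lay below and in 5 MM lay above the rest. The median PIM1 effect of these genes was 0.63 with WT NFATC1 and 0.02 with MM NFATC1. In 283 of them the PIM1 effect passed as a rise with WT and did not pass with MM, in 90 it was a rise with both, and in 31 a rise with WT and a fall with MM. Over all genes, 27.4% passed for the PIM1 effect with WT and 19.4% with MM. Against control cells of the same dye, WT alone gave a median of 0.07 and PIM1 + WT a median of 0.74, with 422 of the 435 higher. Against the stable PIM1 pool of the same dye, which received no NFATC1, MM gave -0.39 and PIM1 + MM -0.38, and 424 of the 435 were lower in PIM1 + MM than in that pool. These effects share samples with the interaction and are a description of it.

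The negative interactions were more mixed. Of the 128, PIM1 + WT lay below the other groups in 56 (43.8%), PIM1 + MM above in 30, WT above in 21 and MM below in 21. Their median PIM1 effect was -0.38 with WT and 0.16 with MM NFATC1, and in 19 of them PIM1 went with a fall under WT and a rise under MM. The WT minus MM difference passed for 0.793% of all genes without stable PIM1 and for 16.1% with it, across dyes. Among the positive genes, 396 were past the test, higher in WT, only beside PIM1. Among the negative genes, 89 were past the test, lower in WT, only beside PIM1.

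**Figure D1:**
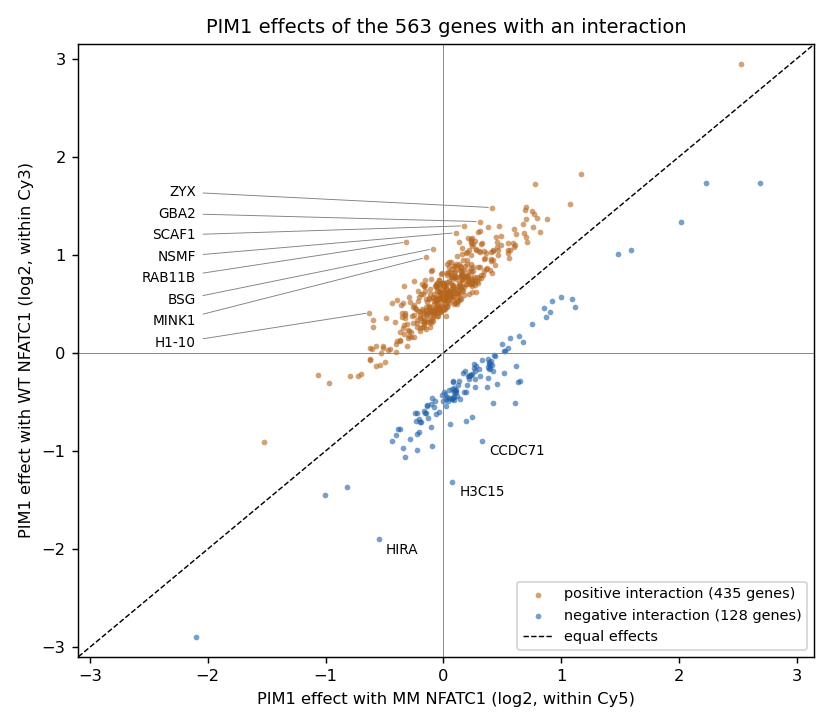
PIM1 effect of each of the 563 genes past the interaction test, in log2, in cells with MM NFATC1 (x axis) and with WT NFATC1 (y axis). The dashed line marks equal effects, and the distance above or below it is the interaction: the 435 positive genes lie above it, most of them near 0 on the x axis, and the 128 negative genes below it.

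RAB11B, a small GTPase of recycling endosomes, had the largest positive interaction among genes past the test. Its log2 intensity was 8.19 and 8.23 in WT, 8.02 and 8.04 in MM, 9.34 and 9.34 in PIM1 + WT and 7.87 and 7.56 in PIM1 + MM. Both PIM1 + WT samples lay more than 1 log2 unit above the other 6 of the 8 transfected samples, and both PIM1 + MM samples lay below the rest. The stable PIM1 pool without NFATC1, in Cy5, read 8.80 and 8.68. The interaction was 1.44 (SE 0.140, limma adjusted p = 0.00484). The RAB11B probe lies in row 35 of the 532 rows of the array, close to the low-signal rows described for ARF1 below. BSG encodes basigin, a membrane glycoprotein that induces matrix metalloproteinases. It read 12.53 and 12.58 in WT, 12.31 and 12.30 in MM, 13.65 and 13.58 in PIM1 + WT and 12.13 and 12.31 in PIM1 + MM. Among the 8 samples, those of PIM1 + WT stood above the rest, with an interaction of 1.15 (SE 0.107, limma adjusted p = 0.00452). The stable PIM1 pool read 13.08 and 13.12, also above the WT and MM samples.

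ZYX encodes zyxin, a LIM-domain protein of focal adhesions that responds to tension on actin fibres. It read 12.61 and 12.58 in WT, 12.43 and 12.36 in MM, 14.07 and 14.08 in PIM1 + WT and 12.83 and 12.79 in PIM1 + MM. It rose with PIM1 beside both forms, by 1.48 with WT and 0.41 with MM, and no 2 groups overlapped. The stable PIM1 pool without transfected NFATC1, read in Cy5, had a mean of 13.74. The interaction was 1.07 (SE 0.0792, limma adjusted p = 0.00233). SCAF1, a serine/arginine-rich factor that binds the tail of RNA polymerase II, read 10.32 and 10.28 in WT, 9.95 and 9.85 in MM, 11.61 and 11.58 in PIM1 + WT and 10.10 and 10.04 in PIM1 + MM. Of the 4 groups PIM1 + WT was again the high one, while the stable PIM1 pool read 10.75 and 10.78. SCAF1 had an interaction of 1.12 (SE 0.0834, limma adjusted p = 0.00233).

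MINK1, a kinase of the germinal centre family that acts in JNK signalling, had an interaction of 1.12 (SE 0.136), with 8.65 and 8.39 in PIM1 + WT samples and at most 7.59 in the other 6. NSMF, a messenger from synapse to nucleus in neurons, had 1.12 (SE 0.166), with 9.36 and 9.25 in PIM1 + WT samples and at most 8.15 in the other 6. GBA2, a glucosylceramidase outside the lysosome, had 1.03 (SE 0.207), with 10.26 and 10.21 in PIM1 + WT samples. Its PIM1 + MM samples lay apart from each other, at 9.32 and 8.79. The GBA2 probe, in row 34, and that of H1-10, in row 38, also lie close to the low-signal rows described for ARF1. H1-10, a replication-independent linker histone, differed in pattern: it read 9.84 and 9.75 in PIM1 + WT but 8.80 and 8.52 in PIM1 + MM, below all other samples, with an interaction of 1.04 (SE 0.130). The stable PIM1 pool without NFATC1 had means of 8.05, 8.75, 9.77 and 9.20 for these 4 genes. Their limma adjusted p was 0.00812, 0.0145, 0.0422 and 0.00874, and the test was lost in 2, 5, 6 and 3 of the 8 fits that left out 1 sample.

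The 3 called negative genes with a symbol took 2 shapes. HIRA, the chaperone that places histone H3.3 outside replication, read 11.19 and 11.31 in WT, 11.21 and 11.18 in MM, 9.29 and 9.40 in PIM1 + WT and 10.79 and 10.51 in PIM1 + MM. It fell with PIM1 beside both forms, with a PIM1 effect of -1.90 with WT and -0.55 with MM. The interaction was -1.35 (SE 0.149, limma adjusted p = 0.00638, and 0.0534 without PIM1 + WT replicate 1). CCDC71, a coiled-coil protein, read 9.38 and 9.36 in WT, 9.36 and 9.38 in MM, 8.50 and 8.46 in PIM1 + WT and 9.64 and 9.75 in PIM1 + MM. Both PIM1 + WT samples were below, and both PIM1 + MM samples above, the WT and MM samples, with an interaction of -1.22 (SE 0.105, limma adjusted p = 0.004). H3C15, a replication-dependent H3 gene, read 12.95 and 12.90 in WT, 11.93 and 11.86 in MM, 11.58 and 11.63 in PIM1 + WT and 11.93 and 12.01 in PIM1 + MM. Among the 4 groups WT without PIM1 was apart, while control cells had a mean of 13.18 and the stable PIM1 pool 10.30, and the interaction was -1.39 (SE 0.0959, limma adjusted p = 0.00233).

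**Figure D2:**
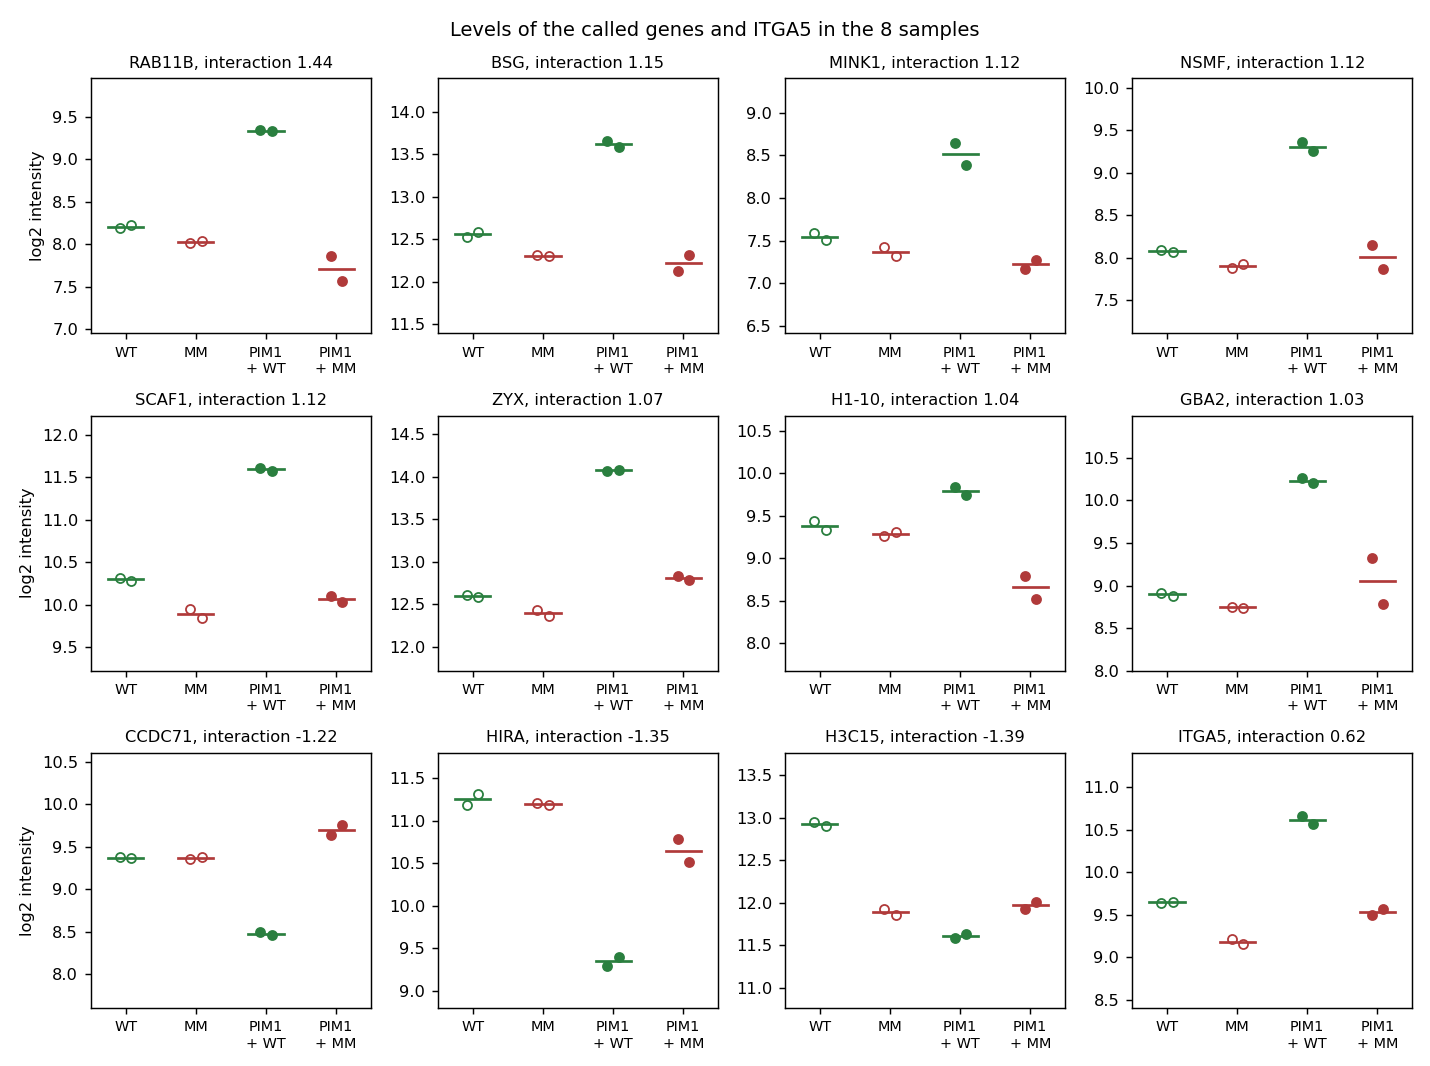
Quantile-normalized log2 intensity of the 11 called genes with a symbol and of ITGA5 in each of the 8 samples, 2 points a group. Green marks Cy3 and red Cy5, filled points have stable PIM1, and bars are group means. PIM1 + WT is the high group for RAB11B at 9.34 and the low group for HIRA at 9.29 and 9.40.

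Below the size of 1, the next positive genes were XAB2, a splicing and DNA repair factor, at 0.99 (SE 0.0825) and ACTBL2, an actin-like protein, at 0.96 (SE 0.116). XAB2 read 9.02 and 9.03 in PIM1 + WT samples and at most 7.91 in the other 6. The next negative genes were NNAT, neuronatin, at -0.93 and EPS8, an actin-capping adaptor of growth factor receptors, at -0.92. EPS8 read 9.09 and 9.05 in WT, 8.54 and 8.51 in MM, 8.79 and 8.76 in PIM1 + WT and 9.13 and 9.18 in PIM1 + MM. The zinc finger gene ZCCHC2 was at -0.85 and the zinc transporter SLC39A9 at -0.78. SLC39A9 lost the test in all 8 fits that left out 1 sample, with a limma adjusted p of up to 0.185.

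Cell adhesion was followed through integrins, the receptors that join matrix to cytoskeleton, and through the proteins that tie them to actin. Of 25 integrin subunits tested, 3 had a positive and 0 a negative interaction past the test, beside 1.71% and 0.503% of all genes. Here and for every list below, these shares are over all genes, dim ones included. The median of the list was -0.06, beside -0.02 over all genes. ITGA5, the alpha subunit of the fibronectin receptor, read 9.64 and 9.66 in WT, 9.21 and 9.15 in MM, 10.66 and 10.57 in PIM1 + WT and 9.49 and 9.57 in PIM1 + MM. MM lay below WT with and without PIM1, across dyes. The WT minus MM difference did not pass without PIM1 (0.46, limma adjusted p = 0.0526) and passed with it (1.085, adjusted p = 0.000104). The interaction was 0.62 (SE 0.123, limma adjusted p = 0.04). ITGA5 passed the test but was below the size for a call. That pass did not survive the removal of any 1 of the 8 samples, with the interaction then at 0.58 to 0.66. ITGA5 is also a gene that the study chose on these samples. By quantitative PCR, the paper reports lower ITGA5 with MM than with WT, in these samples and in an independent set. It gives an earlier time after transfection for the independent set than for these samples. It gives the difference as significant beside stable PIM1 in the independent set and in the control line in these samples. ITGA3, the alpha subunit of a laminin receptor, had 0.65 (SE 0.0907), with 13.87 and 13.86 in PIM1 + WT samples and at most 12.88 in the other 6. ITGB1, the shared beta subunit, had 0.47 (SE 0.0812), and here WT without PIM1 was the low group, at 11.18 and 11.19.

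Of 38 focal adhesion adaptors and kinases, 4 were positive and 0 negative past the test (median 0.09), beside 1.71% and 0.503% of all genes. After ZYX these were the actin crosslinkers ACTN4 at 0.78 and ACTN1 at 0.49, and talin, TLN1, which activates integrins, at 0.66. ACTN4 read 12.85 and 12.81 in PIM1 + WT samples and at most 11.89 in the other 6, whereas ACTN1 read 13.29 and 13.27 in PIM1 + MM samples, below all others. Of 53 genes of actin assembly and contraction, 4 were positive and 0 negative, beside the same shares of all genes (median 0.09). They were cofilin, CFL1, which severs filaments, at 0.90, the myosin light chain MYL9 at 0.78, the Arp2/3 subunit ARPC1B at 0.64 and profilin, PFN1, which feeds monomers to growing ends, at 0.56. PFN1 read 14.20 and 14.14 in PIM1 + WT samples and at most 13.49 in the other 6. Most members of both lists did not pass. Of the 21 lists plotted, the medians for histones, interferon-stimulated genes, actin, trafficking and chromatin kept their sign against 0 in all alternative settings run. The smallest in size were -0.20 for histones, -0.07 for interferon-stimulated genes, 0.006 for actin, 0.02 for trafficking and 0.008 for chromatin. All genes had a median of 0.07 under median centring, so a positive sign alone does not place a list above all genes.

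Of 51 genes of endosomal and vesicle trafficking, 5 were positive and 0 negative (median 0.07), beside 1.71% and 0.503% of all genes. RAB11B was joined by the syntaxin-binding STXBP2 at 0.93, the coat-recruiting GTPase ARF1 at 0.85, the clathrin adaptor subunit AP2A1 at 0.76 and dynamin, DNM2, at 0.41. The paper had already named RAB11B, STXBP2, ARF1 and AP2A1 as putative targets, from WT against MM beside PIM1 in these samples. Their part of the list count is thus not independent of that choice. Other members of the lists that the paper named did not pass the interaction test. They were FHOD1 at 1.36 (SE 0.627), FKBP8 at 1.15 (SE 2.11), INF2 at 1.03 (SE 0.32) and PRKACA at 0.80 (SE 0.241). CORO1B was at 0.73 (SE 0.24) and PXN at 0.34 (SE 0.0781). STXBP2 read 9.97 and 10.05 in PIM1 + WT samples and at most 8.78 in the other 6. ARF1 lies in the first 33 rows of the array, where PIM1 + MM replicate 2 had a lower raw log2 median, 7.34 against 7.61 in the other rows. With those rows left out of that sample it was at 0.67 and no longer passed (limma adjusted p = 0.0623), and it lost the test in 7 of the 8 fits that left out 1 sample. The probes of GBA2, RAB11B and H1-10, in rows 34, 35 and 38, lie just past those rows, so this setting did not reach them. Whether the lower signal of PIM1 + MM replicate 2 extends to them was not tested. On slide 1, which does not hold that sample, their interactions were 0.773, 1.301 and 0.865. On slide 2 they were 1.285, 1.588 and 1.208. Of 30 lysosomal genes, the saposin precursor PSAP (0.69) and the protease CTSD (0.61) were positive and 0 negative (median 0.05).

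Genes around NFAT and PIM were counted beside 1.71% positive and 0.503% negative over all genes. Of 31 members of the NFAT pathway, 1 was positive, FKBP1A, the target of FK506, at 0.84, which was -0.03 at its brightest probe alone (median of the list 0.04). Of 20 NFAT target genes, 0 passed in either direction (median -0.04). RCAN1, a calcineurin inhibitor that NFAT induces, was at -0.25 (SE 0.137, limma adjusted p = 0.426). Of 35 PIM kinases and substrates, 3 were positive and 1 negative (median 0.03). NUMA1, a spindle pole protein and PIM substrate, was at 0.94 (SE 0.0912), with 9.09 and 9.12 in PIM1 + WT samples and at most 8.27 in the other 6. The paper had also named NUMA1 as a putative target from these samples. The chaperone genes HSP90AB1 and HSP90AA1 went opposite ways, 0.45 and -0.44, and the NF-kappaB subunit RELA was at 0.40.

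The list of AP-1 and early response factors gave 3 positive and 0 negative genes of 29 (median 0.01), beside 1.71% and 0.503% of all genes. It holds AP-1 factors, the partners of NFAT on composite sites, together with other early response genes. JUNB was at 0.94 (SE 0.125), JUND at 0.85 (SE 0.142) and FOSL1 at 0.59 (SE 0.0838). The remaining members of the FOS and JUN families did not pass: JUN at -0.39, FOSL2 at -0.19, FOS at -0.14 and FOSB at 0.05. JUNB read 8.04 and 7.96 in WT, 7.86 and 7.79 in MM, 9.21 and 9.26 in PIM1 + WT and 8.06 and 8.18 in PIM1 + MM, the PIM1 + WT samples alone above. Of 20 BCL2 family genes, the survival factor BCL2L1 was at 0.92 (SE 0.0868) and the pro-death BOK at 0.42, with 0 negative (median -0.04). BCL2L1 read 11.32 and 11.31 in PIM1 + WT samples and at most 10.28 in the other 6. It too is among the putative targets that the paper drew from these samples.

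Of 47 genes of the spliceosome and mRNA processing, 6 were positive and 0 negative, beside 1.71% and 0.503% of all genes (median 0.10): SCAF1, XAB2, the polyadenylation factor CPSF1 at 0.83, the splicing subunit SF3B4 at 0.78, SNRPA and SF3A2. Of 44 chromatin regulators, 4 were positive and HIRA alone was negative (median 0.09). The ubiquitin ligase subunit RNF40 was at 0.75, the remodelling subunit ARID1A at 0.69, the deacetylase HDAC7 at 0.62, and CHD4 also passed. Of 28 genes of glycolysis and the hypoxia response, the enzymes PKM (0.78) and ENO1 (0.53) were positive, and ANKRD37 (-0.72) and the peptide hormone ADM (-0.56) were negative (median 0.06).

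Replication-dependent histones, made in S phase to package new DNA, formed the list farthest below 0. Of 52 tested, 11 were negative and 0 positive, beside 0.503% and 1.71% of all genes, and the median was -0.27. Their median WT minus MM difference was 0.14 without PIM1 and -0.10 with it. Beside H3C15, H4C11 was at -0.57, H2AC17 at -0.54 and H4C4 at -0.49. H4C11 read 11.61 and 11.67 in WT, 11.33 and 11.32 in MM, 11.25 and 11.24 in PIM1 + WT and 11.48 and 11.52 in PIM1 + MM. These genes are near-identical copies, so that a probe can read several of them and the members are not independent. How the labelling reads histone transcripts, against other transcripts, was not tested. Of 43 genes of DNA replication, only the helicase subunit GINS4 passed (-0.44), and of 37 mitotic genes only the phosphatase CDC25B (0.43). The medians of these lists were -0.04 and -0.02.

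Of 36 interferon-stimulated genes, the antiviral proteins RSAD2 (-0.65) and MX1 (-0.54) were negative and 0 positive (median -0.17), beside 0.503% and 1.71% of all genes. Both lost the test in all 8 fits that left out 1 sample, with a limma adjusted p of up to 0.159 and 0.168. MX1 read 10.05 and 10.01 in WT, 9.66 and 9.77 in MM, 11.14 and 11.02 in PIM1 + WT and 11.31 and 11.31 in PIM1 + MM. It was higher in all 4 samples with PIM1 than in the 4 without it. The WT minus MM difference, across dyes, did not pass without PIM1 (0.31, limma adjusted p = 0.109) or with it (-0.23, adjusted p = 0.0692). The remaining lists are set beside the same shares of all genes. Of 30 genes of the stress and unfolded protein responses, 3 were positive (median -0.01): PPP1R15A at 0.64, EDEM1 at 0.45 and CHAC1 at 0.43, the last -0.01 at its brightest probe alone. Of 56 oxidative phosphorylation genes 2 were positive (median -0.09), ATP5F1D at 0.59 and NDUFB7 at 0.57. Of 76 cytosolic ribosomal proteins 1 was (median -0.01), RPS2 at 0.41, which was -0.28 at its brightest probe alone. Of 25 genes of sterol synthesis, MVD was positive at 0.49 (median -0.06).

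Genes used as loading references did not pass as reported, though ACTB passed in 8 and GAPDH in 3 of the 22 alternatives with a test (lowest limma adjusted p 0.00965 and 0.0145). ACTB was at 0.34 (SE 0.0751, limma adjusted p = 0.0538), GAPDH at 0.39 (SE 0.104, adjusted p = 0.095) and TBP at -0.09 (SE 0.105, adjusted p = 0.777, and 0.02 after loess). Epithelial markers were well above background in 10 of 10 cases, with 0 past the test. Of 7 stromal and 6 blood markers 0 passed, and COL3A1, DCN, LUM and HBB were not well above background on any array.

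**Figure D3:**
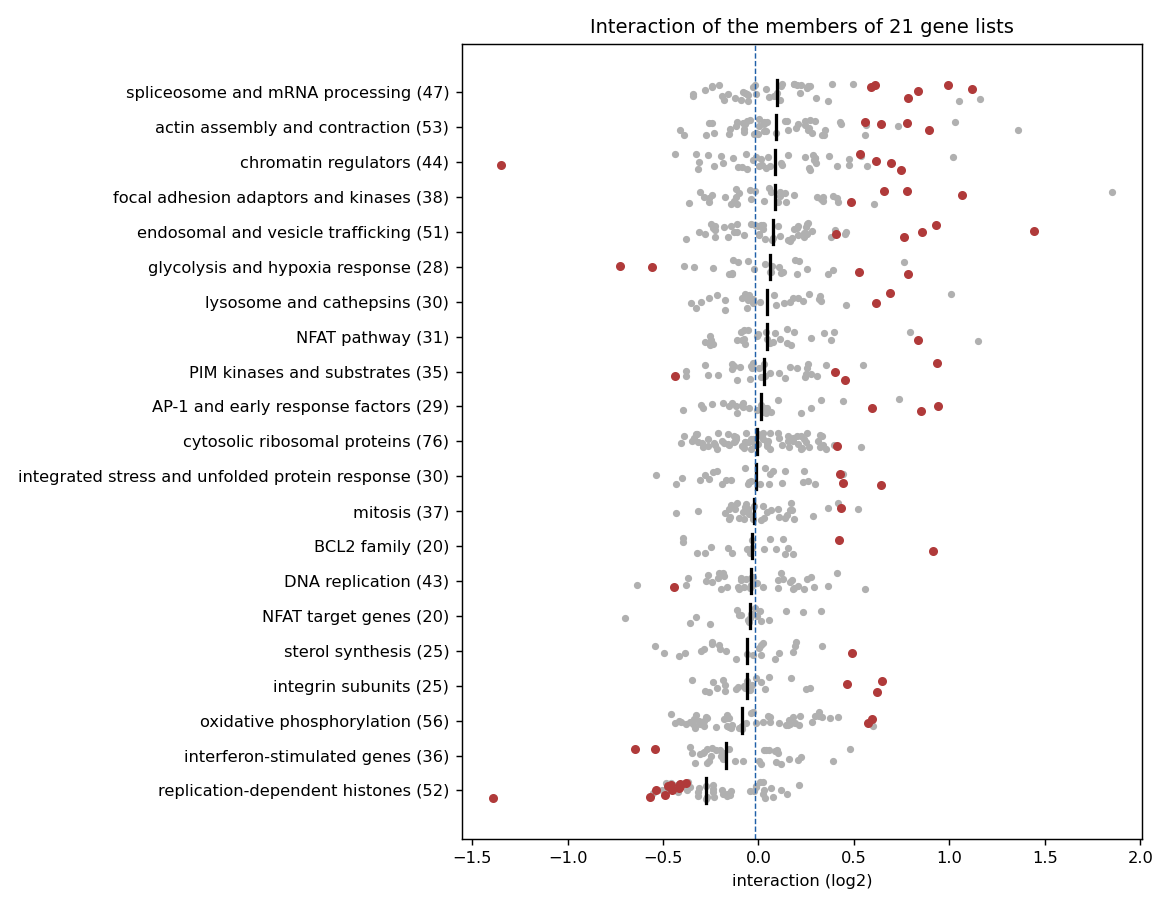
Interaction in log2 of every tested member of 21 gene lists, ordered by median, with the number tested in brackets. Red points passed the adjusted p, grey points did not, black bars are list medians and the dashed blue line is the median of all genes at -0.02. The histone list is lowest at -0.27 and the spliceosome list highest at 0.10, and most members of each list are grey.

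The genes past the test were bright ones. Intensity comes from the same values as the interaction, and dim probes spread less: the 5th to 95th percentile of the interaction was -0.21 to 0.22 in the dimmest of 5 bins and -0.38 to 0.50 in the brightest. The median log2 intensity was 9.96 for the positive and 10.1 for the negative genes, beside 7.38 for all genes. In these 5 bins from dim to bright, the positive genes numbered 0, 3, 53, 180 and 199, and the negative genes 0, 2, 13, 49 and 64. The dimmest bin held 5103 genes and the brightest 5080. The shares of all genes given beside the lists include the dim bins. A list of mostly bright genes can therefore exceed them by brightness alone, and no list was set against genes of like intensity. Of 41 small RNAs tested, 9 were negative and 1 positive, beside 0.503% and 1.71% of all genes. How the labelling reads RNAs of this kind, against other transcripts, was not tested. Below 0 lay 36 of the 41 and 13674 of all 25471 genes, and the median of the small RNAs was -0.27, below 0 in all 24 alternative settings. The spliceosomal RNU2-1 was at -0.89, RN7SK, which holds the elongation factor P-TEFb inactive, at -0.89 and the ribosomal RNA18SN5 at -0.80. RN7SK read 13.51 and 13.66 in WT, 12.52 and 12.76 in MM, 12.88 and 12.90 in PIM1 + WT and 12.80 and 12.85 in PIM1 + MM, with WT without PIM1 the high group.

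Chromosome 19, the most gene-dense chromosome, held 74 of the 391 positive genes with a symbol (18.9%) and 0 of the 103 negative ones, beside 7.04% of all genes with a symbol. Positive protein-coding genes were also shorter, with a median length of 16.1 kb in the RefSeq annotation of GRCh38.p14 beside 26.9 kb for all 17191 coding genes tested. Promoter windows of 300 bases (250 before and 50 after the start) came from RefSeq, GRCh38.p14. Windows matched 77.6% of all tested genes with a symbol, under the 80% set as the minimum for such a comparison, so it was restricted to coding genes, a choice made after that share was seen. Among coding genes 80.4% of all and 84.2% of the positive genes had a window. For the negative genes the share was 76.1%, and no comparison is given because it is under the minimum. The median GC content was 68.7% for 324 positive genes and 63.3% for 13822 coding genes. The share of genes with a positive interaction went from 0.291% where GC was under 40% to 3.65% at 70 to 80%. Intensity, gene length and GC content were not separated here.

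**Figure D4:**
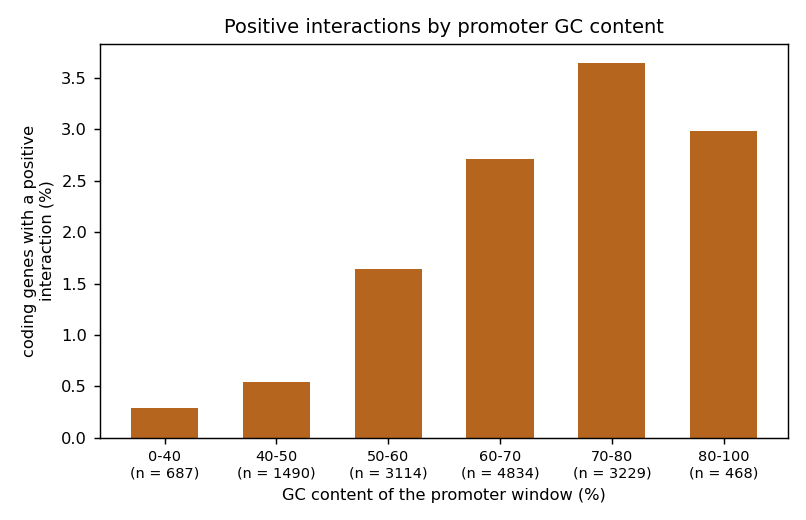
Percent of tested protein-coding genes with a positive interaction past the adjusted p, by GC content of the promoter window in percent, with the number of genes in each bin in brackets. The bars go from 0.291% in the lowest bin to 3.65% at 70 to 80% and stand at 2.99% in the highest.

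The NFAT core GGAAA was searched on both strands of these windows, as was the AP-1 motif TGACTCA. These letters do not overlap each other. GGAAA was in 56.5% of positive, 59.2% of all coding and 61.4% of all 27305 windows of the table, and TGACTCA in 4.63%, 3.60% and 4.92%. By GC content, GGAAA was in 78.9% of positive and 73.5% of all coding windows below 60%, in 62.9% and 60.8% at 60 to 70%, and in 40.7% and 38.1% above 70%. Within each of these GC bins the positive share was the higher one, the reverse of the pooled order. The bins are broad and held 57, 132 and 135 positive windows. No test was run, and the shares describe these windows only. The windows of RAB11B, ZYX, HIRA and ITGA5 are shown because these genes carry the largest positive, an adhesion, a negative and the integrin interaction. Each is given 5′ to 3′ on the strand of the gene, with motif matches in capitals (TTTCC is GGAAA and TGAGTCA is TGACTCA on the opposite strand).
RAB11B, chr19:8390110-8390409, plus strand: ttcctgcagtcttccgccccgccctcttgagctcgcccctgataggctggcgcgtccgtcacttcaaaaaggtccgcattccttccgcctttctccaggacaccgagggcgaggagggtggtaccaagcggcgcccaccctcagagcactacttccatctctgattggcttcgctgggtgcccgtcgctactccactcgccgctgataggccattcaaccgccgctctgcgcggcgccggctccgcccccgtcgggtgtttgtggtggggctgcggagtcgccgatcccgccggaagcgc
ZYX, chr7:143381095-143381394, plus strand: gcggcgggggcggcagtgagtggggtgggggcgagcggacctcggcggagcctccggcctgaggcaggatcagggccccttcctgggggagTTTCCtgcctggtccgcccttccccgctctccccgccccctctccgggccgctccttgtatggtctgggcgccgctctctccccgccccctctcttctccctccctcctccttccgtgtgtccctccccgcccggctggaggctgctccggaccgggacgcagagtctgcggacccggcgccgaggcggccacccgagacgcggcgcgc
HIRA, chr22:19431684-19431983, minus strand: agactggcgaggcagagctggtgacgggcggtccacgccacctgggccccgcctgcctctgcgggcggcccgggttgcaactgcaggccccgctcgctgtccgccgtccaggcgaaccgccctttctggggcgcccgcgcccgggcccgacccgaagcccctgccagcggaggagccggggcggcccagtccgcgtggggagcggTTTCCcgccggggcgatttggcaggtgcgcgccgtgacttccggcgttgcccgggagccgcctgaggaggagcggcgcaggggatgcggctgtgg
ITGA5, chr12:54419217-54419516, minus strand: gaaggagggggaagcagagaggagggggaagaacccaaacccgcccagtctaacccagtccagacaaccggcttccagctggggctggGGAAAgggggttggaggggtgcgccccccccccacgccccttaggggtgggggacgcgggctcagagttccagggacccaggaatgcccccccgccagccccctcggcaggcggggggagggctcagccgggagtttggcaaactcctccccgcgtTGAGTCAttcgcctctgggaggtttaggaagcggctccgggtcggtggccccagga
The RAB11B window held 0 matches, those of ZYX and HIRA 1 GGAAA each, and that of ITGA5 1 GGAAA and 1 TGACTCA.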

How the data were processed

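Gene expression was measured in 12 PC-3 samples on 6 two-colour arrays (Agilent Human Gene Expression v2 4x44K), labelled with the Low Input Quick Amp kit. The authors deposited, per the file headers from Feature Extraction 11.0.1.1, raw median intensity values and background, a background-subtracted processed intensity and 0 or 1 flags for each spot. The authors also deposited a table of log2 values, quantile normalized between the 12 channels. Each sample was read from the channel of its own dye. The median signal was used in place of the mean signal, which was not analysed here.

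Flagged outlier spots were left out and spots of a probe averaged. Of 34127 probes, 31484 exceeded the 90th percentile of 153 negative control spots in at least 2 channels and were kept. No background was subtracted, log2 values were quantile normalized, and genes with several probes were summarised by their median. RefSeq accessions (GRCh38.p14) gave symbols to 18857 of 25471 genes, and 156 genes had a missing value in some channel. 56.9% to 69.0% of spots in a channel were well above background and 0 were saturated. A model with 1 mean for each group was fitted to the 12 samples with limma 3.58.1 (R 4.3.3), with two-sided p-values adjusted by the Benjamini-Hochberg method over all genes. The fit was tested on simulated data.

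Named genes were those called with a symbol, the 10 largest interactions in each direction with 1 sign on both slides, up to 4 members of each list past the test by size, and PIM1, NFATC1, ITGA5, RCAN1, ACTB, GAPDH and TBP. DNM2, SNRPA, SF3A2 and CHD4 are named only to complete a count. FHOD1, FKBP8, INF2, PRKACA, CORO1B and PXN are named only because the paper named them. The result of 1 further list is not reported here. The members and lists were chosen with earlier results of these data known. Protein-coding genes were chosen for the promoter comparison after 77.6% coverage was seen over all genes with a symbol. The alternatives were background correction, scanner signal, normalization, deposited values, probe filters, probe choice, the first 33 rows, the samples in the fit, slide and array blocks, and leaving out each sample. A fit that leaves 1 sample in a group assumes that it varies like the other groups.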

Additional observations from a re-analysis of the deposited data

Results flagged for a closer look

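For 13 genes the WT minus MM difference with stable PIM1 departed from that without it, by the interaction test in limma and by at least 1 on the log2 scale. The positive ones were RAB11B (1.44), BSG (1.15), MINK1 (1.12), NSMF (1.12), SCAF1 (1.12), ZYX (1.07), H1-10 (1.04) and GBA2 (1.03), together with the transcript ENST00000451609 (1.01), which has no symbol here. The negative ones were H3C15 (-1.39), HIRA (-1.35) and CCDC71 (-1.22), together with the probe A_33_P3241184 (-1.12), also without a symbol. That probe had group means of 8.62 in WT, 7.84 in MM, 8.11 in PIM1 + WT and 8.45 in PIM1 + MM. The unnamed transcript read 9.04, 9.03, 9.71 and 8.69 in the same order of groups.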

How the results depend on the processing

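As reported, 563 genes passed the adjusted p and 13 were also at least 1 in size. The second count was 77 with the processed signal and 24 with loess, and 7 to 160 when 1 sample was left out. The first was 1063 with loess, 1475 with probes above the negative controls in all 12 channels, 1028 with the 8 transfected samples alone, 1448 with the array as a fixed block and 2478 with it as a random block, and 18 to 981 when 1 sample was left out. Positive genes were 60.5% of those passing under the stricter filter, 62.3% with the fixed block and 54.9% with the random block, beside 77.3% as reported. With each channel centred on its median both counts were 0, as they were with the slide as a replicate block beside that centring, a setting chosen after seeing the data (440 genes at an unadjusted p below 0.05). With the slide as a replicate block alone, which pairs samples of 1 number by slide, 683 genes passed and the count at 1 or more stayed at 13. The cause of these shifts was not tested, apart from fewer genes or samples where the setting itself removes them. Of the 69 named genes past the test, 10 passed it in all 20 alternatives without median centring: BSG, CCDC71, H3C15, RAB11B, SCAF1, ZYX, XAB2, EPS8, NUMA1 and BCL2L1. Direction turned for FKBP1A (-0.032), RPS2 (-0.28) and CHAC1 (-0.0097) at the brightest probe, and for TBP after loess (0.022). Values within a slide have no test and give no count.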
